A study of Caenorhabditis elegans with 2 samples.

Results

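Homeodomain transcription factor genes outside the Hox cluster and the TALE cofactors were examined for binding of UNC-55, the worm's COUP-TF type orphan receptor. The members were taken by name from the Ensembl annotation: protein-coding genes named ceh- with a number, other than ceh-13, ceh-20, ceh-40 and ceh-60, together with 19 homeodomain genes known by other names, such as unc-86, mec-3, lin-11, ttx-3, vab-3 and zag-1. This gave 78 of 19973 nuclear protein-coding genes. The rule goes by name and uses no binding value, but it was set with earlier results of these data known, and the Hox and TALE genes it leaves out include strongly bound ones. The data were ChIP-seq peak lists from late embryos of Caenorhabditis elegans strain NC1639, both sexes together and of unknown age. The strain carries the array wdIs49, integrated on chromosome III, in which the ttr-39 promoter drives UNC-55a joined to GFP, with dpy-20 as marker. A note in the labels gives the tag as GFP with FLAG, and the antibody is given only as unc-55. Both of the 2 biological replicates belong to this single group, so there was no contrast between conditions. The ttr-39 promoter is known for its activity in the GABA motor neurons of the ventral cord. Whole embryos were used, and the cells that gave each peak are not known here.

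The homeodomain is a DNA-binding fold of a helix-turn-helix type that often reads a core with TAAT. In the worm nervous system these factors are known as terminal selectors: each neuron class expresses its own combination, which sets its transmitter, receptors and connections. UNC-55 is known to act in the VD motor neurons, where it prevents the synaptic rewiring that the sister DD neurons undergo. Whether the present peaks, from whole late embryos carrying the ttr-39 array, bear on those neurons was not tested. Members were sorted by the class of their homeodomain: LIM and POU genes, known for mechanosensory and interneuron fates, paired and paired-like genes such as the Pax6 homologue vab-3, sine oculis, CUT, the NK-like and other Antennapedia-superclass genes, a ZEB zinc finger factor with the HNF-type hmbx-1, and divergent genes.

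The peaks that carry the results are shown by the 201 bp around their summits, in ce11 and on the plus strand. They are the strongest member peaks in an intron, in a promoter window and in intergenic sequence away from UTRs, the peaks at members that both replicates' lists hold, and the 1 member peak with an AGGTCA core, which was chosen after its sequence was seen. Windows that touch an annotated UTR are not shown. The peak near ceh-88, which both replicates' lists also hold, is not among those shown. Capitals mark, on either strand, the nuclear receptor core AGGTCA, the GA repeat GAGAGA, the letters ACGCAG and the homeodomain core TAATTA. The genome sequence is that of RefSeq for WBcel235, the same build as ce11.
zag-1 intron peak, rank 290, chrIV:3858108-3858308: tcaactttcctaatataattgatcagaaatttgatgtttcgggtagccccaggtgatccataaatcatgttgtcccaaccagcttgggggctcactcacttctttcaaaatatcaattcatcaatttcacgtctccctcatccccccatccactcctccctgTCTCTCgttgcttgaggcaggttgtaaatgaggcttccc
ceh-34 intron peak, rank 809, chrV:5318456-5318656: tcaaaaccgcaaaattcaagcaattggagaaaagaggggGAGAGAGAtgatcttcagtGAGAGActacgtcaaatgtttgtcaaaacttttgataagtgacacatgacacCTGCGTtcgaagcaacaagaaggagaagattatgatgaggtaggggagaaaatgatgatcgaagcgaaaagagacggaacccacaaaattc
ceh-34 upstream peak, rank 1657, chrV:5321298-5321498: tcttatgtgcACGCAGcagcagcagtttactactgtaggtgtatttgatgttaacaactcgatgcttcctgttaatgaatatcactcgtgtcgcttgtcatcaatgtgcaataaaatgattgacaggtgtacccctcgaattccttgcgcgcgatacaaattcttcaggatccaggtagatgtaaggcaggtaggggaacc
ceh-43 intron peak, rank 1187, chrIII:4448102-4448302: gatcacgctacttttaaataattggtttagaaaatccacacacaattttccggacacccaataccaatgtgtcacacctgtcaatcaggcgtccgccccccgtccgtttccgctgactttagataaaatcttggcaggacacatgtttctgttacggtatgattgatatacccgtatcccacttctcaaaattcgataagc
ceh-39 promoter peak, rank 1135, chrX:1856275-1856475: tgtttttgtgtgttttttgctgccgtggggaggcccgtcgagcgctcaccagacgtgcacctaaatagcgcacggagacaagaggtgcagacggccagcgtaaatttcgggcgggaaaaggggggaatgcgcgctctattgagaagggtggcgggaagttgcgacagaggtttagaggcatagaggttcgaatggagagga
vab-15 upstream peak, rank 1186, chrX:9843673-9843873: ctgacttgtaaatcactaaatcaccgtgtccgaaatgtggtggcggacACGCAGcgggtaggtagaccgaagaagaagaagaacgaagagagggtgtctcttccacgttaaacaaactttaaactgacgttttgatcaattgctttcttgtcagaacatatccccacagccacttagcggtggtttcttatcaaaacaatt
ceh-14 downstream peak, rank 2297, chrX:7522702-7522902: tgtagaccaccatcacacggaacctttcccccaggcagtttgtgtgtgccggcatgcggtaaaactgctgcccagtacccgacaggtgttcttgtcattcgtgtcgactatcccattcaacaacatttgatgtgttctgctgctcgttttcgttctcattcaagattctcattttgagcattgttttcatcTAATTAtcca
ceh-1 downstream peak, rank 2441, chrX:4651742-4651942: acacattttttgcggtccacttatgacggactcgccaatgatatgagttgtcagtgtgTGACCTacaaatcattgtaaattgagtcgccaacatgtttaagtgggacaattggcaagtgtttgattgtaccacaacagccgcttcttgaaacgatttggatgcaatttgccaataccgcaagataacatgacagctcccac
The ceh-39 and ceh-43 windows held none of these letters, while the ceh-34 intron window held 3 GAGAGA matches, of which 2 overlap, and 1 ACGCAG match.

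A small share of homeodomain genes, as of all genes, had an UNC-55 peak at the promoter, and the share within 5 kb was close to that of all genes. The authors' optimal peak set, thresholded on the irreproducible discovery rate (IDR), held 2511 peaks. The rate measures how well the ranks of peaks repeat between lists, but replicate 1's own list overlapped only 770 of the 2511, or 30.7%. The promoter window covered 1000 bp before and 200 bp after each protein-coding transcript start. A summit lay in such a window at 3 of the 78 homeodomain genes, ceh-38, ceh-39 and ceh-74, or 3.85% (95% Wilson interval 1.32 to 10.7), against 7.34% of all protein-coding genes. Inside the gene itself a summit lay at 4 members, zag-1, ceh-34, ceh-43 and ceh-38, or 5.13% (2.01 to 12.5), against 3.23% of all genes. Within 5 kb of the gene, body included, 18 members had a summit, or 23.1% (15.1 to 33.6), against 24.1%. All 3 background shares lay within the members' intervals, which cover counting error over genes only. Counted per length, the members had 0.0239 gene and summit pairs per kb of gene and flanks, and all genes had 0.0239. The results that follow describe single genes.

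**Figure D1:**
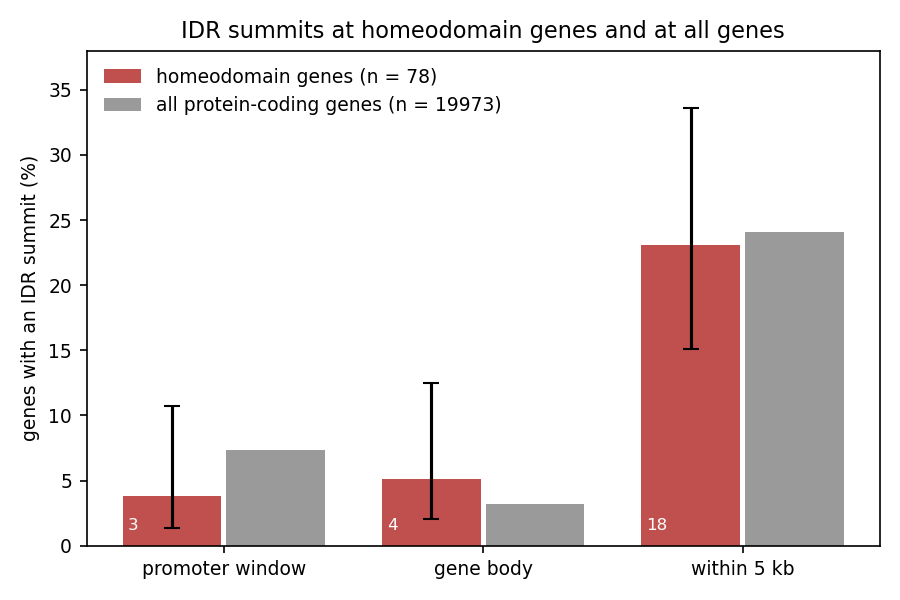
Share of genes with an IDR summit (%) in a promoter window, in the gene body and within 5 kb of the gene, for the 78 homeodomain genes (left bars, with their 95% Wilson intervals and number of genes) and for all 19973 protein-coding genes (right bars). Each background bar lies inside the members' interval.

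In all, 21 IDR peaks lay within 5 kb of a homeodomain gene, of which 16 lay near a single member and 5 lay near 2 neighbouring members, so the 18 genes are not independent. Their signal values, set by the authors' peak caller against a control, ran from 24.2 to 62.1 with a median of 31.1, against a median of 34.4 over all 2511 peaks. The highest rank among them was 290. Replicate 2's own list overlapped 21 of the 21 peaks, and 2510 of all 2511 IDR peaks, so this overlap sets no member peak apart. Replicate 1's own list overlapped 5 of the 21, or 23.8%, against 30.7% of all IDR peaks. The signal values are not scaled between lists: replicate 1's ran from 2.00 to 19.1 over 3577 regions and replicate 2's from 3.51 to 306 over 30000 regions, so only ranks within a list are read here. Sequencing depth cannot be read from peak lists.

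**Figure D2:**
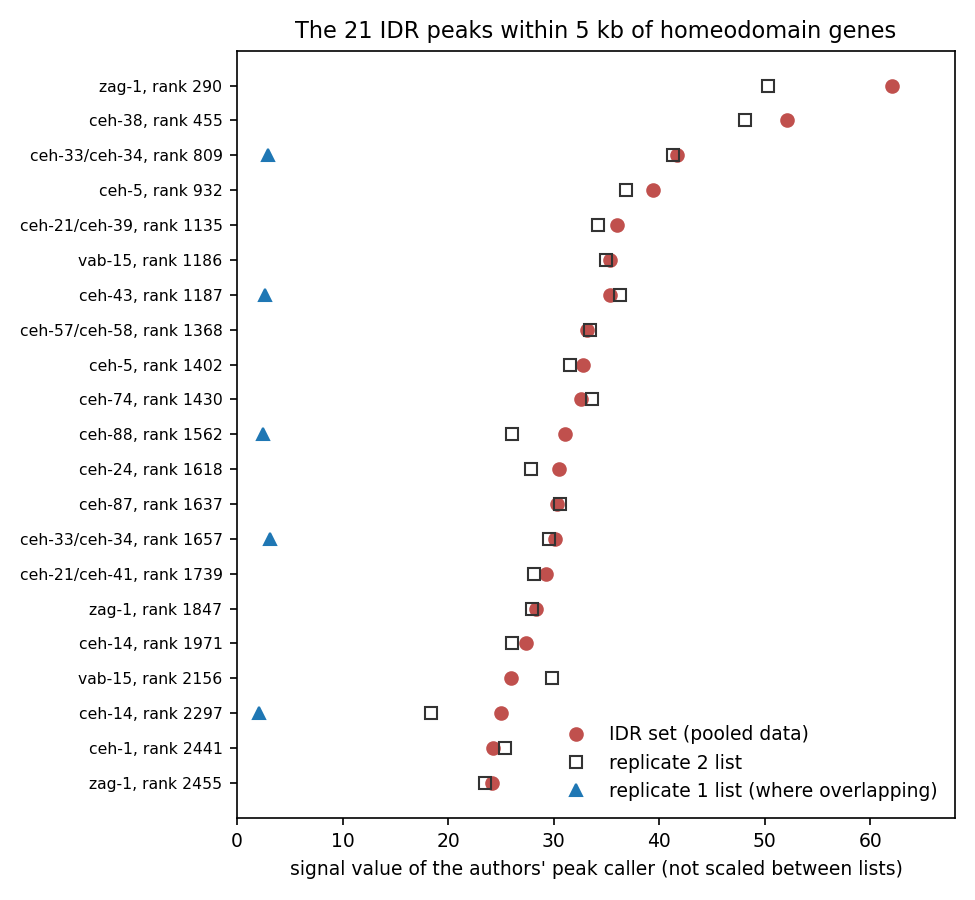
Signal value of the authors' peak caller for each of the 21 IDR peaks within 5 kb of a homeodomain gene, ordered by rank in the IDR set: circles, IDR set; open squares, the overlapping region of replicate 2's list; triangles, that of replicate 1's list where there is one. Squares run near the circles. Triangles are present for 5 peaks, at 2.10 to 3.12 on replicate 1's own scale, where the median over its list is 2.71.

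The strongest peak at any member was at zag-1, which encodes a ZEB-family zinc finger and homeodomain factor required for axon guidance and neuron differentiation. It lay at chrIV:3858028-3858387 in an intron, 2365 bp downstream of the transcript start, with a signal value of 62.1 at rank 290. In replicate 2 the overlapping region had a signal value of 50.4 at rank 423, and replicate 1's list held none there. A pair of weaker peaks flanked it. The first, of rank 1847 with a signal value of 28.3, had its summit in an intron at 251 bp downstream of the start, just past the 200 bp limit of the promoter window, so zag-1 was not counted among promoter-bound genes. The other, of rank 2455 and a signal value of 24.2, lay 392 bp past the 3′ end. With 3 summits zag-1 had more than any other member, in a gene of 5727 bp whose upstream neighbour is 14214 bp away. Replicate 1's list had its own regions at zag-1, of rank 946 inside the gene and of rank 1135 at −4143 bp from the start, and the IDR set held neither. Replicate 2's list overlapped the first of these at rank 29698, near the end of its list, and not the other. Both replicates thus placed regions at the gene, with the highest ranks at different positions.

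Of the sine oculis genes, ceh-34, which specifies the pharyngeal nervous system, and its neighbour ceh-33 had both of their peaks in the lists of both replicates. The stronger peak lay at chrV:5318376-5318735 in an intron of ceh-34, with a signal value of 41.7 at rank 809. The overlapping regions had a signal value of 2.91 at rank 1591 in replicate 1 and of 41.3 at rank 715 in replicate 2. The second lay 1821 bp upstream of ceh-34, with a signal value of 30.1 at rank 1657. It had overlapping regions of signal value 3.12 at rank 1452 in replicate 1 and of 29.5 at rank 1539 in replicate 2. Both summits had ceh-34 as the nearest transcript start, and ceh-33, on the same strand upstream of ceh-34, was counted because they lay within 5 kb past its 3′ end. The third gene of the class, ceh-32, had no IDR summit within 5 kb, and its best pooled region there had rank 7628.

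Among the 22 NK-like and other Antennapedia-superclass genes, 5 had a summit within 5 kb, or 22.7%, against 24.1% of all genes. In the promoter window 0 of them had one, against 7.34% of all genes. The Distal-less homologue ceh-43, which acts in anterior epidermis and in dopaminergic neurons, had an intron peak at chrIII:4448022-4448381 with a signal value of 35.4 at rank 1187. This peak too was in both replicates, with a signal value of 2.67 at rank 1850 in replicate 1 and of 36.3 at rank 996 in replicate 2. The Msx homologue vab-15, required for touch neuron development, had a pair of upstream peaks. The farther, 3502 bp from the start, had a signal value of 35.4 at rank 1186 in the IDR set and of 34.9 in replicate 2. The nearer, 1219 bp from the start, had a signal value of 26.0 at rank 2156 in the IDR set and of 29.8 in replicate 2. Replicate 1's list overlapped neither, but had a region of rank 798 at −366 bp from the vab-15 start, where replicate 2's region had rank 25697. So at vab-15, as at zag-1, the replicates' highest ranks were at separate positions.

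The other NK-like genes with a summit were ceh-24, ceh-5 and ceh-1, each in replicate 2's list and none overlapped by replicate 1's. The peak at ceh-24, a regulator of sublateral motor neurons and vulval muscle, was 4547 bp upstream, at rank 1618, with swan-1 as the nearest start. The Vax-type gene ceh-5 had peaks of rank 932 and 1402 at 1663 and 4984 bp upstream. Both lay inside introns of ocrl-1. The first also lay in an annotated 3′ UTR of eat-16, and the second in the promoter window of eat-16. The NK1-type gene ceh-1 had a peak of rank 2441 at 1325 bp past its 3′ end, the peak with the AGGTCA core printed above.

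Of the 6 CUT genes, 4 had a summit within 5 kb and 2 had one in the promoter, where the shares of all genes were 24.1% and 7.34%. The 4 genes rest on 3 peaks, of which 2 were shared by neighbouring CUT genes and 2 lay in the promoter window of a gene outside the set. CUT factors of the ONECUT type are known to act together in setting features shared by all neurons. The peak at ceh-38 was the strongest promoter peak of any member, at chrII:6951393-6951752, with a signal value of 52.1 at rank 455 in the IDR set and of 48.2 at rank 477 in replicate 2. Its summit lay in an annotated 5′ UTR, 46 bp upstream of the nearest of the 11 annotated transcript starts of ceh-38, and also in the promoter window of the neighbouring gene malt-1, so which gene it serves cannot be told apart. Replicate 1's list did not overlap it. At ceh-39, an X-linked signal in sex determination, the summit lay 203 bp upstream of the start, with a signal value of 35.98 at rank 1135 in the IDR set and of 34.2 at rank 1134 in replicate 2. This peak lay 3639 bp upstream of the next CUT gene, ceh-21, and a further peak of rank 1739 in the promoter window of T26C11.4 lay within 5 kb of ceh-21 and of ceh-41. The 3 X-linked CUT genes were therefore counted through 2 peaks. The remaining CUT genes, ceh-48 and ceh-49, had no IDR summit within 5 kb.

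Of the 22 divergent members, 5 had a summit within 5 kb, or 22.7%, against 24.1% of all genes. The promoter peak of ceh-74 had a signal value of 32.5 at rank 1430 in the IDR set and of 33.7 at rank 1183 in replicate 2, with its summit upstream of the start and inside an intron of cest-2.3. The neighbours ceh-57 and ceh-58 shared a peak of rank 1368, 1413 bp upstream of ceh-58. The peak of rank 1637 near ceh-87 lay in the promoter windows of sup-9, a potassium channel gene, and nspf-1. That of rank 1562 near ceh-88 lay in the promoter window of C49C3.15, and was overlapped by a region of rank 2448 in replicate 1. Over all 21 peaks, the nearest transcript start was that of a member in 13, and 4 lay in the promoter window of a gene that is no member and of no member.

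**Figure D3:**
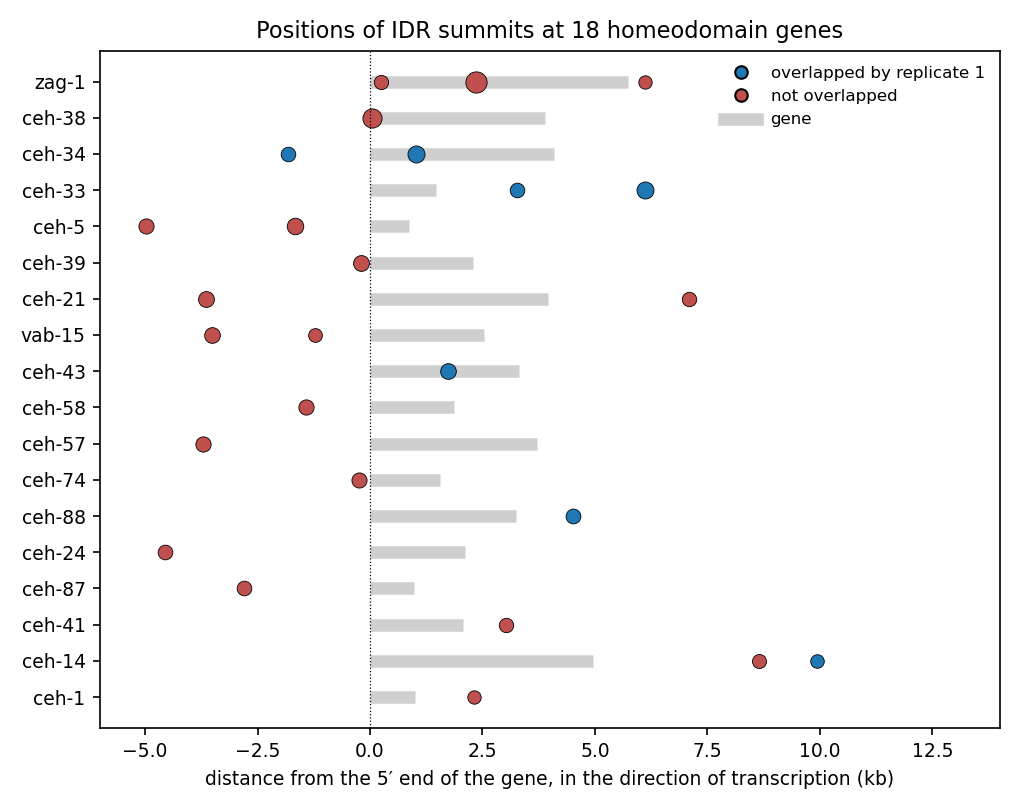
Position of each IDR summit (circles, larger for a higher signal value) relative to the outermost 5′ end of the gene, in kb in the direction of transcription, for the 18 homeodomain genes with a summit within 5 kb, ordered by their best rank. Grey bars are the genes, red circles are peaks that replicate 1's list did not overlap, and blue circles are peaks overlapped by replicate 1's list, at ceh-34, ceh-33, ceh-43, ceh-88 and ceh-14.

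The LIM, POU and paired classes had an IDR summit within 5 kb at 1 of 6, 0 of 3 and 0 of 14 genes, against 24.1% of all genes. They were grouped here after these small counts were seen. Among 6 LIM genes, ceh-14 alone had a summit within 5 kb, with peaks of rank 1971 and 2297 at 3679 and 4967 bp past its 3′ end. The LIM genes mec-3, lin-11, lim-4, lim-7 and ttx-3 had none. The 3 POU genes, unc-86, ceh-6 and ceh-18, had none, and neither did the 14 paired and paired-like genes, among them vab-3, ttx-1, unc-42, ceh-10, ceh-36 and pax-3. The HNF-type hmbx-1 had none. The classes hold 2 to 22 genes, and no difference between them was tested.

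Below the IDR set, the pooled list, which its authors label as peaks and background, held weaker regions at many of these genes. A pooled region lay in the promoter window of 28 members, or 35.9%, against 43.7% of all genes, with a median best rank of 11538 for these members and 8959 for all genes with one. Within 5 kb there was a pooled region at 67 members, or 85.9%, against 86.8%, and the median of the best signal value was 13.9 for members and 13.3 for all genes with one. Inside the gene a pooled region lay at 39 members, or 50% (39.2 to 60.8), against 38.8% of all genes, which lies just below the interval. Many such intervals were looked at, so this is no test. The members are also longer genes, and the part of length in this share was not tested. Just outside the IDR set, whose lowest signal value was 23.8, stood regions near ceh-16 (the Engrailed homologue) at rank 2664, vab-3 at rank 2702, ceh-63 at rank 2726 and ttx-1 (an Otx homologue of the thermosensory neurons) at rank 2806, with signal values of 23.04, 22.8, 22.7 and 22.3. Just inside it stood the third peak of zag-1 at rank 2455 and the peak of ceh-1 at rank 2441. The peak of rank 2441 is the sole one of ceh-1, while zag-1 has others of higher rank.

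In promoter windows, the members without any IDR summit whose pooled region ranked best were ceh-93, ceh-18, ceh-100, mec-3 and pal-1. Their ranks were 4934, 5253, 5496, 6746 and 6931. The mec-3 region, at the gene that with unc-86 specifies touch neurons, had a signal value of 11.9. Replicate 1 had a region there of rank 1556 among its 3577, and replicate 2 had one of rank 8446 among its 30000. At pal-1, the caudal homologue of posterior blastomeres, the signal value was 11.7. The regions there had rank 2554 in replicate 1 and rank 8558 in replicate 2, in these lists of unlike length. Within 5 kb, 85.9% of members had a pooled region, against 86.8% of all genes, so lacking one was about as common over all genes. No pooled region lay within 5 kb of 11 members, namely ceh-12, ceh-23, ceh-28, ceh-51, ceh-75, ceh-81, ceh-82, ceh-83, ceh-84, eyg-1 and ttx-3. Of these, ceh-12 is the HB9 homologue of VB motor neurons and ttx-3 the selector of the AIY interneuron.

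**Figure D4:**
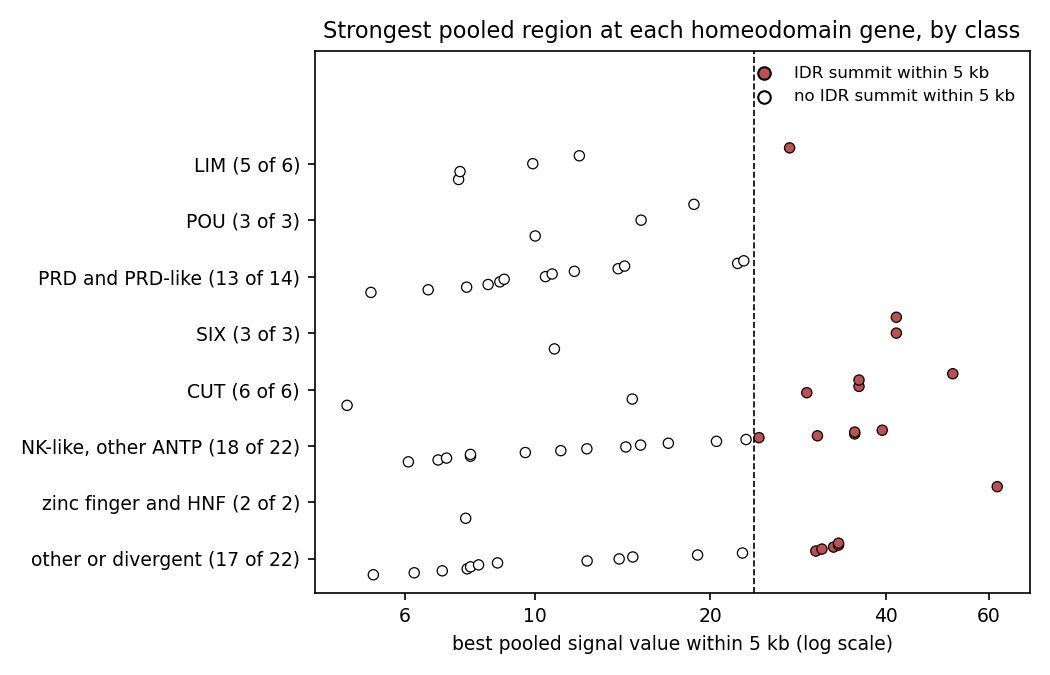
Best pooled signal value within 5 kb of each homeodomain gene (log scale), by homeodomain class, with the number of genes that have such a region of the number in the class. Filled points are genes with an IDR summit within 5 kb, and the dashed line is the lowest signal value of the IDR set, 23.8. The 3 POU and the 13 paired-class genes with a region lie left of the line.

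Replicate 1's own list gave a different picture of these genes. It had a region summit within 5 kb of 34 members, or 43.6% (33.1 to 54.6), against 34.4% of all genes, which lies inside the interval, and 22 of these members had no IDR summit within 5 kb. By class, the regions were at 3 of 6 LIM genes, 3 of 3 POU genes, 7 of 14 paired-class genes, 3 of 3 sine oculis genes and 1 of 6 CUT genes. They were also at 11 of 22 NK-like genes, 1 of the 2 zinc finger and HNF genes and 5 of 22 divergent genes. The strongest was at −3363 bp from the start of ceh-16, with a signal value of 9.01 at rank 43 in replicate 1. In replicate 2 the region there had a signal value of 13.6 at rank 5220. Inside vab-3 a region had a signal value of 5.51 at rank 276 in replicate 1, against 4.31 at rank 24143 in replicate 2. Near ceh-9 a region had a signal value of 4.98 at rank 363 in replicate 1, and replicate 2's list held none there. Of the 50 regions of replicate 1 within 5 kb of a member, replicate 2's longer list overlapped 20, or 40%, against 49.1% of all 3577. With the strongest 2511 regions of each list, 29 members had a summit within 5 kb in replicate 1 and 18 in replicate 2, and 11 in both. The share of members was 37.2% (27.3 to 48.3) with replicate 1's regions, against 26.1% of all genes, which lies below the interval. With replicate 2's regions it was 23.1% (15.1 to 33.6), against 24.3% of all genes. These intervals treat genes as independent, though neighbours share peaks, and several sets were looked at, so they serve as no test. All 18 members of replicate 2, and 11 of the 29 of replicate 1, also had an IDR summit within 5 kb. Replicate 2's full list overlapped 2510 of the 2511 IDR peaks, so its 18 members are no separate support. What sets the replicates apart was not tested.

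Homeodomain genes are longer and more widely spaced than most. The body and the span within 5 kb grow with gene length, while no window used here widens with spacing. Their median length was 3150 bp and their median distance to the upstream protein-coding neighbour 2492 bp, against 2027 and 937 bp for all genes. All genes were put into 5 equal bins by length. With the bins weighted as in the members, the shares of all genes were 8.37% for a promoter summit, 4.40% for a body summit and 26.5% within 5 kb. With 5 bins of the distance upstream weighted likewise, they were 7.29%, 4.02% and 25.1%. All of these lay inside the members' intervals. In the bin of longest genes, from 4322 bp, 2 of 22 members (zag-1 and ceh-14) had a summit within 5 kb, against 35.7% of all genes there. From the shortest bin up, the other bins had 3 of 6 members, against 19.9%, 2 of 11, against 17.2%, 4 of 13, against 21.1%, and 7 of 26, against 26.9%. By the distance upstream, 5 of 9 members up to 222 bp from the neighbour had a summit within 5 kb, against 26.2%, and 4 of 8 between 223 and 648 bp, against 24.4%. Between 649 and 1382 bp it was 0 of 9, against 18.7%. By the same measure, 1 of 21 members between 1383 and 3491 bp had a summit within 5 kb, against 23.3%, and 8 of 31 in the most isolated bin, against 28.1%. These counts are small and were not tested.

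By chromosome, 6 of 22 members on X had a summit within 5 kb, against 29.7% of the genes of X, and 4 of 17 on II, against 23.1%. On V it was 4 of 14, against 15.2%, and on IV 2 of 6, against 21.8%. On I it was 1 of 11 members, against 31.9%, and on III 1 of 8, against 31.1%. Of the 26 pairs of a member and a summit, 12 were upstream of the gene, or 46.2%, 9 downstream and 5 in the body, or 19.2%. Over all genes 52.9% of pairs were upstream and 13.3% in the body.

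Short motifs at the 21 summits were compared with those at all summits. The letters were sought on both strands within 100 bp of the summit. GAGAGA was present at 9 of the 21, or 42.9%, against 51.6% of all 2511, and ACGCAG at 7, or 33.3%, against 27.4%. TAATTA, a homeodomain core, was at 2, or 9.52%, against 4.86%. AGGTCA, the core read by nuclear receptors, was at 1, near ceh-1, or 4.76%, against 6.33%, and the longer AAGGTCA, which holds it, at 0 of the 21, against 1.31%. The mean GC content was 44.9% ± 4.53 (SD over 21 windows), against 44.6% ± 6.13 over all 2511. Each motif count was within 2 windows of the count that the share over all summits gives for 21 windows.

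The homeodomain genes left out of the set serve as a comparison of the same fold. A promoter summit lay at 3 of 6 TALE genes, unc-62, ceh-20 and ceh-40, and at 3 of 6 Hox genes, ceh-13, lin-39 and mab-5. The best signal values within 5 kb were 321 for unc-62, 225 for ceh-20, 113 for ceh-13 and 73.7 for lin-39. These lay above the 62.1 of zag-1, at rank 290. The best peaks within 5 kb of mab-5, of rank 753, and of ceh-40, of rank 1296, were weaker than that of zag-1. Among 11 further homeodomain genes, 0 had a promoter or body summit. They include unc-30, alr-1 and lim-6, known from GABA neurons, and unc-4 and vab-7, known from cholinergic motor neurons. Within 5 kb there was a summit at lim-6, of rank 1928, and at unc-4, of rank 2324. These were 18.2% of the 11 genes, against 24.1% of all genes. By name, 13 of 269 nuclear hormone receptor genes had a promoter summit, or 4.83%, and 3 of 25 bHLH genes, or 12%, beside the 3.85% of the members and the 7.34% of all protein-coding genes. The differences between these lists were not tested.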

How the data were processed

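ChIP-seq was done by the authors on 2 biological replicates of 1 group, and no read data were used here. Per the deposited file descriptions, regions were called by the authors against a control in each replicate and in the pooled alignments, and the optimal IDR set was derived from these 3 lists, so replicates were pooled for the main set. The sources used here name no peak caller or aligner. The authors' signal value is the peak caller's own and is not scaled between lists. The deposited −log10 q-value was not used to rank. Positions are ce11, placed on WBcel235 with Ensembl release 115 annotation. The ce10 lists were not used, and the control library was not analysed here. Depth is unknown. Intervals cover counting error only, treat genes as independent and are not adjusted for the many sets compared.

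Summits were start plus the deposited offset, and an overlap was at least 1 bp. A summit in the windows of several genes counted for each. Mitochondrial genes were left out. Ranks follow the signal value. Motif counts used 100 bp on either side. Counts and 95% Wilson intervals were computed with Python 3.11.15, pandas 2.3.3 and scipy 1.17.1, and tested on simulated data. No test was run, as there is no contrast.

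Members and lists were chosen with earlier results of these data known. The name ceh-44, of the CUT list, was not matched in the annotation. Named were all members with an IDR summit in a promoter window or body, those with one within 5 kb, and, of the rest, the 5 with the best pooled promoter region. Genes just outside the IDR set, those with no pooled region, the strongest regions of replicate 1 and the AGGTCA window were chosen after their values were seen. Alternatives were other peak sets, each replicate alone, and other windows and distances.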

Additional observations from a re-analysis of the deposited data

How the results depend on the processing

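Within 5 kb, the count of 18 members was 13 at 2 kb (16.7%, against 14.7% of all genes) and 26 at 10 kb (33.3%, against 36.8%). It was 9 with the stronger IDR peaks (1255 of them), or 11.5%, against 13.1% of all genes. With the 770 peaks overlapped by replicate 1 it was 5, or 6.41%, against 8.27%. Where replicate 1 covered 50% or more of the peak it was also 5, against 7.01% of all genes. With all 30000 pooled regions it was 67, or 85.9%, against 86.8%. Leaving out a replicate gave 18 (23.1%, against 24.3% of all genes) to 29 (37.2%, against 26.1%). The promoter count of 3 was 0 with peaks overlapped by replicate 1 under either overlap, against 2.15% and 1.81% of all genes. It was 28 with all pooled regions (35.9%, against 43.7% of all genes). A window of 2000 bp before and 500 bp after the start gave 8 (10.3% of members and of all genes). Nearest starts only gave 10 (12.8%, against 10.1% of all genes). With a replicate left out it was 3 (3.85%, against 7.37%) to 5 (6.41%, against 5.08%). The body count of 4 was 2 with peaks overlapped by replicate 1 under either overlap (2.56%, against 1.1% and 0.941% of all genes). It was 39 with all pooled regions (50%, against 38.8% of all genes). With the stronger IDR peaks it was 4 (5.13%, 2.01 to 12.5, against 1.57% of all genes, which lies below the interval). For introns only it was 3 (3.85%, against 2.56%), and with a replicate left out 4 (5.13%, against 3.14%) to 10. The higher figure is replicate 1's own list in each case, where body summits were at 12.8% of members (7.12 to 22) and 6.11% of all genes, which lies below the interval. The intervals were not adjusted for the number of sets compared, so a background share outside an interval is no test. Each replicate's set held its strongest 2511 regions, while the other sets differ in size, and the causes of these moves were not tested. No paired analysis was possible because the replicates form 1 group and no test was made. Depth limits cannot be given from peak lists.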
